A study of Homo sapiens with 4 samples.

Results

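The 43 genes described here act in mitosis, from the kinases that start it to the proteins that divide the cell. They form a list of gene symbols, and all 43 were found, each in 1 row, among 25133 rows with a symbol. The rule that picks their rows used no measured value, but the list was chosen with earlier results of these data known. MDA-MB-231 is an established human breast cancer line of basal-like, mesenchymal character. The cells were infected with lentivirus carrying either a scrambled short hairpin RNA (shSCR, genotype labelled WT) or a hairpin against JARID2 (shJARID2, genotype labelled JARID2 knockdown), with 2 libraries per group. JARID2 is an accessory subunit of Polycomb repressive complex 2. The groups otherwise share line, medium and infection protocol as labelled, and the labels do not give the number of hairpins, the time after infection or whether libraries came from separate cultures, so the spread behind each p-value is that between libraries and may be technical.

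Expression was given as FPKM, the fragments of a gene for its length and for the depth of the library. Steps between low FPKM values corresponded to depths of 12.8 to 16.2 (in units of 1e6 reads), lower in both shJARID2 libraries than in both shSCR libraries, and rows without a symbol held 21.1% to 21.4% of the summed FPKM in shSCR and 24.0% to 24.5% in shJARID2. The part of either difference in the results was not tested. JARID2, the targeted gene, measured 10.8 and 10.8 FPKM in shSCR and 3.88 and 3.91 FPKM in shJARID2, a log2 fold change of -1.27 (SE 0.059, limma adjusted p = 0.0014, or -1.15 after the GC correction described below). Of genes chosen to check the line, CD44, AXL and CAV1 lay between 68.9 and 417 FPKM, and ESR1, PGR, GATA3 and CDH1 stayed at or below 0.451 FPKM. VIM, a mesenchymal gene that this line is known to express strongly, was at only 2.10 to 4.20 FPKM, and 24.4% of its exon bases are shared with genes on the opposite strand. ERBB2 lay between 6.58 and 15.7 FPKM.

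Mitosis is started by CDK1 bound to cyclins A and B, and Polo-like and Aurora kinases then build the spindle. Kinetochores attach chromosomes to spindle microtubules, and unattached kinetochores keep the spindle checkpoint active, which holds back CDC20, an activator of the anaphase-promoting complex (APC/C). Once CDC20 is free, APC/C marks securin and cyclin B for destruction, separase cuts cohesin, and cytokinesis follows. Many of these genes are transcribed late in the cell cycle through a promoter element named the cell cycle genes homology region (CHR), bound by the MuvB core complex, often together with CCAAT boxes bound by NF-Y. In bulk RNA, fewer cells in mitosis and less RNA per mitotic cell cannot be told apart.

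RefSeq promoter windows (GRCh38.p14, 250 bases before to 50 after the annotated start) were found for 36 of the 43 genes, and none was found for FOXM1, AURKA, TPX2, BIRC5, BUB3, TTK and UBE2C. CHR letters (TTTGAA or TTCGAA, both strands) stood in 27 of 36 windows, 75%, against 16.6% of 27305 RefSeq windows of the same length. CCAAT, on either strand, stood in 28 of 36, 77.8%, against 35.7%, and both together in 22, 61.1%, against 6.58%. TTCGAA reads the same on both strands, and a CHR match and a CCAAT match can share letters at their ends. Within 50 bases of the start, CHR letters were found in 23 of 36 windows, 63.9%, against 5.05% of all. These matches are letters in a window and not measured binding.

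The 120 bases before the start of 5 members are shown because these genes carry like letters and yet differ in their change with the knockdown. As measured, CKS2 had the largest rise and CDC20 and PLK1 the steepest falls, INCENP belongs to a complex whose 4 members fell as measured, and CCNB2 did not pass the test. Capitals mark CHR letters (TTTGAA or its reverse complement TTCAAA) and CCAAT or its reverse complement ATTGG, and each sequence reads 5′ to 3′ on the gene's strand, + for all 5.
CKS2, chr9:89311075-89311194: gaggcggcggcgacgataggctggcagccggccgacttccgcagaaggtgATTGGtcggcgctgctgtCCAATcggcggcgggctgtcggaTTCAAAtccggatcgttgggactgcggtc
CDC20, chr1:43358861-43358980: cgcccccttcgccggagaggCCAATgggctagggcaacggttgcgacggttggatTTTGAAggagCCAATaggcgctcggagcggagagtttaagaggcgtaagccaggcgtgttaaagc
PLK1, chr16:23678769-23678888: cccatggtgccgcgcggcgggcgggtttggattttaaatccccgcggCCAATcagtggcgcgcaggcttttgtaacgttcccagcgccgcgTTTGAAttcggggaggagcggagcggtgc
CCNB2, chr15:59105026-59105145: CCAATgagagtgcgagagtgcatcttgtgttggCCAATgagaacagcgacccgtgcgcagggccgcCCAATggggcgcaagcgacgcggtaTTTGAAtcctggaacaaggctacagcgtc
INCENP, chr11:62123891-62124010: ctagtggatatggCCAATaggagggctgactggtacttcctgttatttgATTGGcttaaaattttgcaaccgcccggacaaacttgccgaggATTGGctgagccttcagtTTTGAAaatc

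The CHR letters begin at position -29 from the start in CKS2, PLK1 and CCNB2, at -65 in CDC20 and at -10 in INCENP. CDC20 has a further match at -178, outside the stretch shown. Among tested genes with a window, CHR letters stood in 11 of 16 that rose as measured, in 7 of 11 that fell, and in all 8 that did not pass. CCAAT stood in 11, 10 and 6 of these windows. By the calls after the GC correction described below, CHR letters stood in 7 of 12 windows of genes called higher (58.3%), in 12 of 14 called lower (85.7%) and in 7 of 9 that did not pass. CHR letters together with CCAAT stood in 8 of 16, 7 of 11 and 6 of 8 windows by the measured calls, and in 4 of 12 (33.3%), 11 of 14 (78.6%) and 6 of 9 by the corrected calls. The order of the shares thus depended on the correction, and none of these differences was tested.

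**Figure D1:**
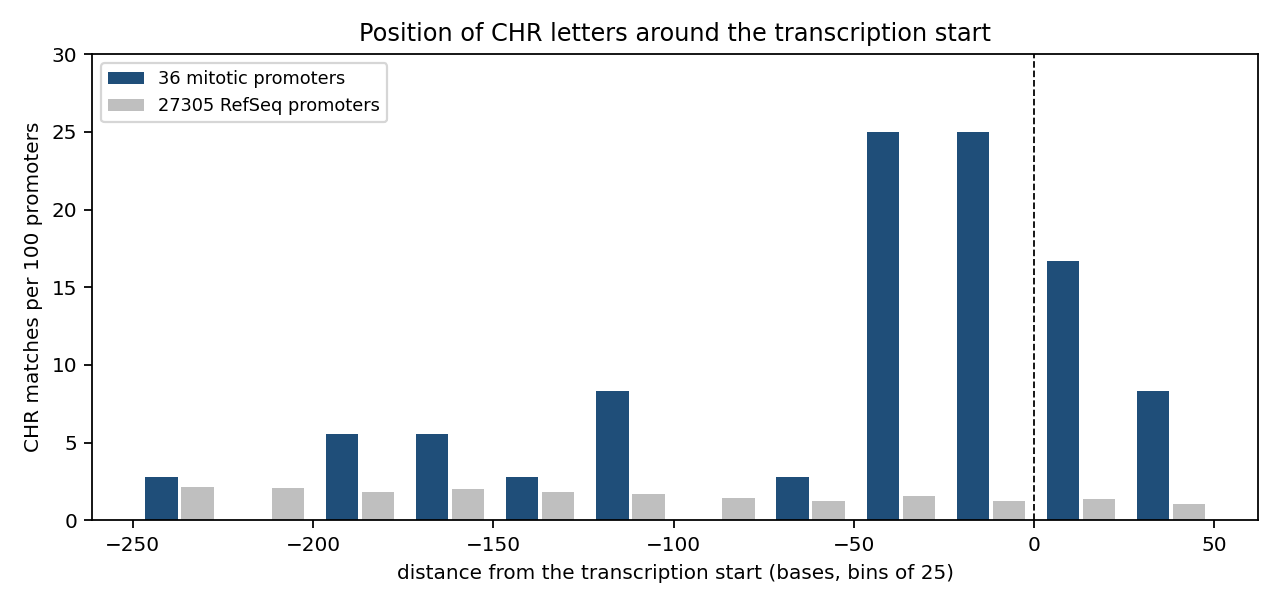
Bars give CHR matches per 100 promoters (vertical axis) by distance of the match from the transcription start in bases, in bins of 25 (horizontal axis), for 36 mitotic promoters (blue) and 27305 RefSeq promoters (grey). In the mitotic promoters the bins from -50 to 0 each hold 25 matches per 100 promoters, and no bin of all promoters exceeds 2.12.

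Of the 43 genes, 42 reached a mean of 1 FPKM and were tested. PRC1, which bundles spindle microtubules, did not. Each log2 fold change sets the knockdown against the control on log2(FPKM + 1), where genes of low level show less than their full change. A gene was called at a limma adjusted p (Benjamini-Hochberg over all 12455 tested genes) below 0.05. Of the 42, 18 were higher and 15 lower in shJARID2. The background was 59.7% of all tested genes called, 28.0% higher and 31.6% lower. Among genes with a mean of at least 5 FPKM the background was 71.5% called, 36.8% higher and 34.7% lower, and 45% and 37.5% of the 40 mitotic genes at that level were. The median log2 fold change of the 42 was 0.031, against -0.018 over all tested genes. Mitotic genes thus split in both directions, as all tested genes did, with a median near that of all genes as measured, before any GC correction.

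FPKM did not overlap between the groups for 39 of the 42 genes, where the background was 82.9%. Of these, 21 lay higher in shJARID2 and 18 lower, beside 39.8% and 43.1% of all tested genes. With limma-voom on recovered reads 20 of the 42 were higher and 15 lower, where the background was 65.6% called, 32.2% higher and 33.5% lower. Individual changes ran from -1.20 (CDC20) to 1.83 (CKS2). TPX2 was the most abundant of the genes in shSCR, at 198 ± 2.86 FPKM (SD, n = 2), followed by TOP2A at 153 ± 4.01. In shJARID2 TOP2A came first, at 185 ± 1.19 FPKM, and TPX2 second, at 178 ± 2.42. CKS2 moved from rank 24 to rank 6 and CDC20 from rank 6 to rank 18.

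The direction followed the GC content of the transcripts, as it did across the whole table. Genes that rose had a median GC content of 39.5% (35.3% to 47.0%), and genes that fell had 54.5% (40.0% to 59.9%). Over the 42 genes the log2 fold change and GC content had a Pearson r of -0.71 and a Spearman rho of -0.68, a description across genes measured in the same 4 libraries. Among all tested protein-coding genes the median log2 fold change was 0.47 in the lowest of 10 bins of GC content and -0.80 in the highest. When the smooth on GC content was subtracted in each library, 13 of the 42 genes were higher and 20 lower, where the background was 41.9% called, 21.7% higher and 20.2% lower. With transcript length added to the correction 11 were higher and 21 lower, beside 42.0% of all genes called, 21.3% higher and 20.7% lower. With GC correction alone, the background at a mean of at least 5 FPKM was 55.1% called, 29.7% higher and 25.4% lower, against 32.5% and 47.5% of the 40 mitotic genes. The median of the 42 turned from 0.031 to -0.14, with 0.0025 over all genes. Both values are therefore given below, the second as GC-corrected. Counts by step or class below stand beside all-gene shares of 28.0% higher and 31.6% lower as measured, and 21.7% and 20.2% GC-corrected. At a mean of at least 5 FPKM, where 40 of the 42 genes lie, the shares were larger. They were 36.8% and 34.7% as measured, and 29.7% and 25.4% GC-corrected.

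In total 12 genes were called higher in both fits: CDK1, CKS2, CCNB1, CDC25C, PLK4, NEK2, NUSAP1, BUB3, MAD2L1, NDC80, NUF2 and PTTG1. Another 11 were called lower in both: CCNA2, PLK1, FOXM1, TPX2, BIRC5, INCENP, CDCA8, CENPA, CENPF, CDC20 and UBE2C. Calls in both fits that also held without each library in turn were fewer, namely CKS2, NUSAP1 and BUB3 higher and CCNA2, PLK1, CDCA8, CENPF, CDC20 and UBE2C lower. With length added to the correction CCNB1 and PTTG1 no longer passed, and with a replicate block beside it CCNB1 and FOXM1 did not. The calls of TTK, CENPE and ECT2 (higher) and of CDC25B (lower) turned to the opposite direction with the correction.

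**Figure D2:**
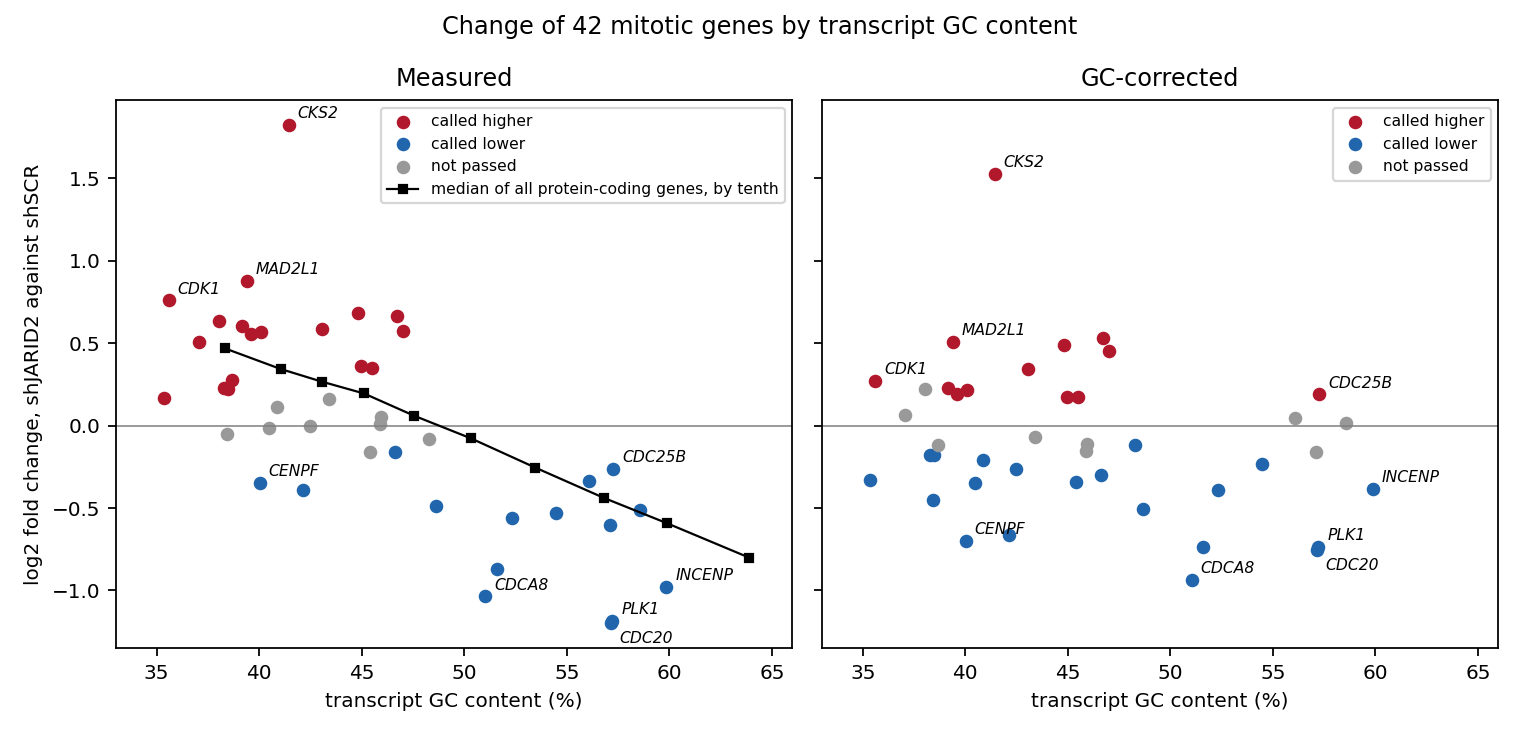
Log2 fold change of shJARID2 against shSCR (vertical axis) by transcript GC content in percent (horizontal axis) for the 42 tested genes, as measured (left) and after GC correction (right), coloured by call. Black squares on the left are medians of all protein-coding genes in 10 bins of GC content and go from 0.47 to -0.80. CKS2 is at the top of both panels, and CDC20, PLK1 and CDCA8 are among the lowest in both. After correction UBE2C (-0.74) lies level with PLK1 (-0.73).

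Genes of entry into mitosis split, with CDK1 and its small partner CKS2 higher and PLK1, cyclin A2 and FOXM1 lower. Of 10, 4 rose and 4 fell as measured, and 5 were higher and 3 lower after GC correction. CKS2, which binds CDK1 and helps it act on substrates already phosphorylated, measured 33.3 and 33.9 FPKM in shSCR and 134 and 110.0 FPKM in shJARID2. Both knockdown libraries lay above 3 times the level of either control. The log2 fold change was 1.83 (SE 0.10, limma adjusted p = 0.0014, GC-corrected 1.53). In GENCODE 29 (GRCh38) CKS2 spans chr9:89311198-89316703 (+ strand). Its paralog CKS1B stayed between 2.74 and 3.11 FPKM, and the groups overlapped (log2 fold change 0.011, SE 0.095, limma adjusted p = 0.93). CKS1B has 6 annotated pseudogene copies and CKS2 has none, and how reads with several matches were counted is not given in the sources used here.

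CDK1, the kinase that drives entry, measured 30.3 and 28.9 FPKM in shSCR and 52.2 and 49.4 FPKM in shJARID2. The change was 0.76 (SE 0.052, limma adjusted p = 0.0014) and 0.27 after GC correction. CCNB1, the main mitotic cyclin, went from 134 and 133 to 178 and 166 FPKM (0.36, GC-corrected 0.18), whereas CCNB2 stayed between 37.6 and 40.3 FPKM and did not pass (0.052, SE 0.045, GC-corrected -0.11). CDC25C, a phosphatase that removes inhibitory phosphates from CDK1, rose from 9.40 and 8.27 to 15.2 and 13.9 FPKM (0.66, GC-corrected 0.53). After GC correction these rises were smaller, and those of CDK1 and CDC25C were each lost in 2 of the 4 fits without 1 library (CDK1 without either shSCR replicate, CDC25C without shSCR replicate 2 or shJARID2 replicate 1). That of CCNB1 was kept only without shJARID2 replicate 2.

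PLK1, which activates CDC25C and acts in centrosome maturation and cytokinesis, measured 38.3 and 39.6 FPKM in shSCR and 15.7 and 17.5 FPKM in shJARID2. Both knockdown libraries lay far below both controls, with a ratio of group means of 0.426. The log2 fold change was -1.18 (SE 0.065, limma adjusted p = 0.0014, GC-corrected -0.73). PLK1 shares 12.5% of its exon bases with other genes. CCNA2, cyclin A2, fell from 63.7 and 60.5 to 46.9 and 47.5 FPKM (-0.39), and the GC-corrected change was larger (-0.66). The ratio of CDK1 to CCNA2 FPKM was 0.476 and 0.477 in shSCR and 1.11 and 1.04 in shJARID2. The GC-corrected difference of CDK1 minus CCNA2 on log2(FPKM + 1) was -0.96 and -0.92 in shSCR and 0.033 and -0.038 in shJARID2. The contrast between the groups was not tested. FOXM1, a transcription factor of many G2/M genes, fell from 32.8 and 31.1 to 20.7 and 23.1 FPKM (-0.53, GC-corrected -0.23), with a GC-corrected call that was lost without any one of the 4 libraries. It shares 15.9% of its exon bases with other genes. CDC25B, a relative of CDC25C, went from 74.8 and 76.3 to 61.4 and 64.2 FPKM (-0.26, limma adjusted p = 0.0085), but was higher after GC correction (0.19, limma adjusted p = 0.013). Its measured call was lost without shSCR replicate 2, and its corrected call was kept only without shJARID2 replicate 2.

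**Figure D3:**
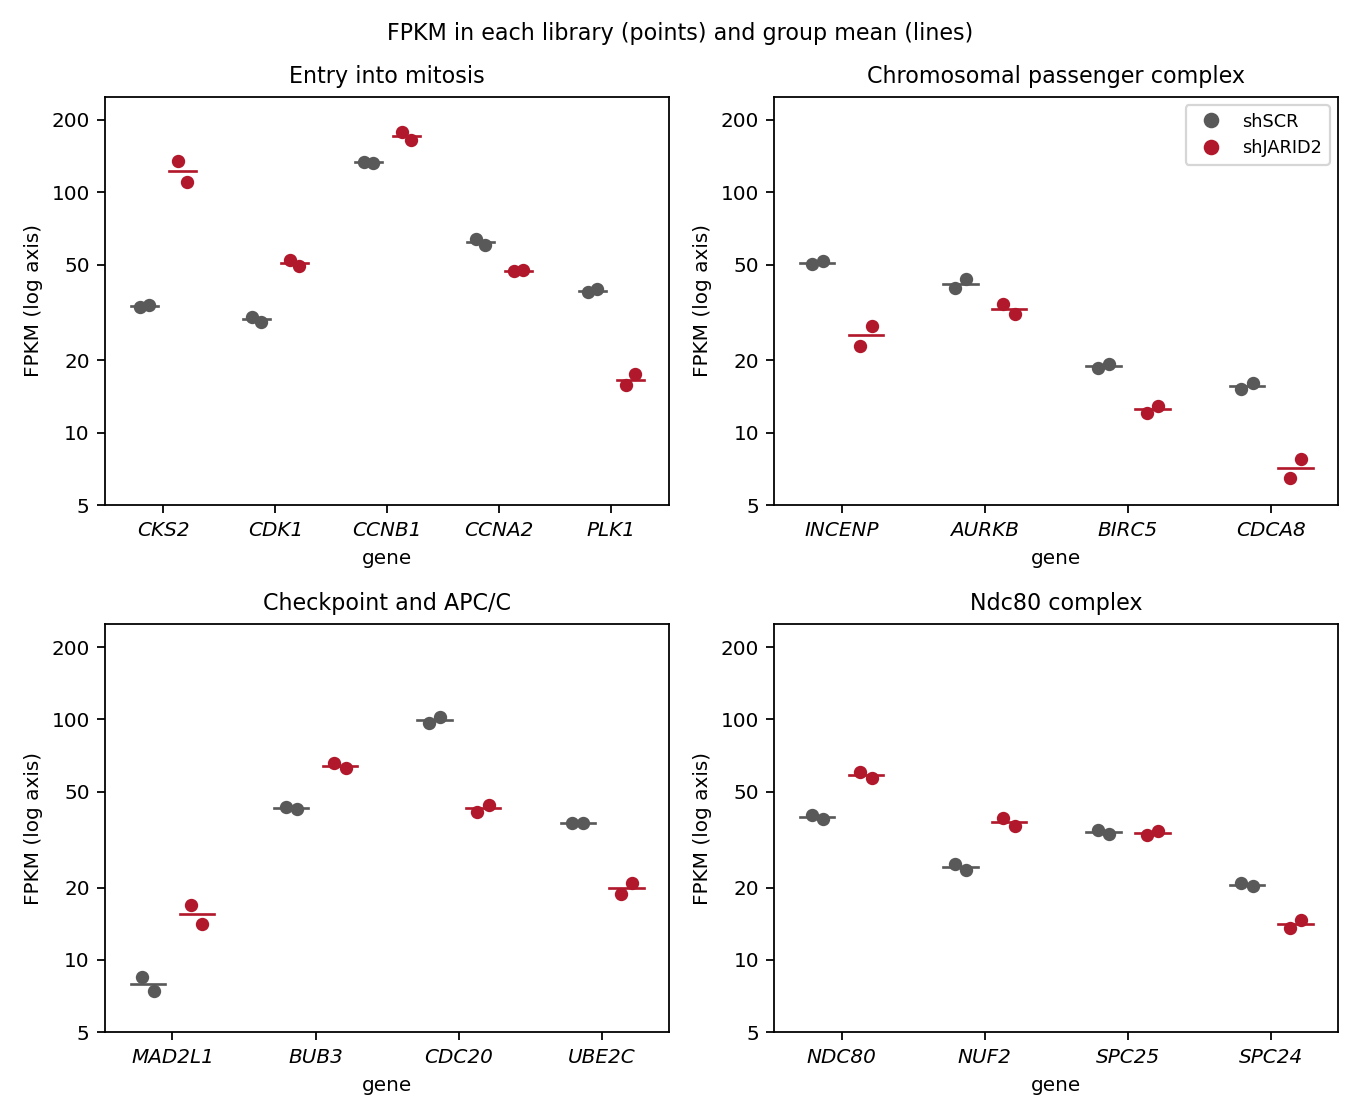
FPKM on a log axis (vertical) of 17 genes (horizontal) in 4 panels, with 1 point per library and a line at the mean of each group of 2, shSCR in grey and shJARID2 in red. The chromosomal passenger genes all lie lower in shJARID2, MAD2L1 and BUB3 lie higher where CDC20 and UBE2C lie lower, and the 4 Ndc80 subunits differ in direction. Of the checkpoint and APC/C steps, BUB1 and BUB1B (not passed as measured), TTK and PTTG1 (higher) and ESPL1 (lower) are not drawn.

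Among 8 genes of spindle assembly 5 rose and 1 fell as measured, and 3 were higher and 3 lower after GC correction. NUSAP1, which binds and bundles spindle microtubules, measured 95.9 and 90.5 FPKM in shSCR and 153 and 147 FPKM in shJARID2 (0.68, SE 0.050, limma adjusted p = 0.0015, GC-corrected 0.49). Both knockdown libraries lay well above both controls, and the call held in both fits without each library. Exons of another gene on the same strand cover 62.2% of those of NUSAP1, so the reads of the pair may not be told apart. PLK4, the kinase that starts centriole duplication, rose from 21.9 and 21.3 to 33.2 and 31.2 FPKM (0.56, GC-corrected 0.19). NEK2, which separates centrosomes, rose from 12.9 and 12.9 to 21.7 and 18.2 FPKM (0.59, GC-corrected 0.34). The corrected calls of PLK4 and NEK2 were kept only without shJARID2 replicate 2.

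HMMR, a microtubule-binding protein, rose from 7.08 and 8.18 to 12.7 and 12.1 FPKM (0.64), and ASPM, which focuses spindle poles, from 61.1 and 56.2 to 84.7 and 82.4 FPKM (0.51). Neither passed after GC correction (0.22 and 0.063). TPX2, which targets and activates Aurora A on the spindle, fell slightly as measured, from 201 and 196 to 176 and 179 FPKM (-0.16, limma adjusted p = 0.027, GC-corrected -0.30). The measured call was lost without any one of the 4 libraries, and the corrected one held without each. AURKA itself, at 3.32 to 4.16 FPKM, did not pass as measured (-0.16, SE 0.087, limma adjusted p = 0.17, GC-corrected -0.34 with a call lost without any one library) and has 2 pseudogene copies. DLGAP5, a kinetochore fibre protein, was flat as measured, at 39.6 and 39.1 against 38.5 and 37.6 FPKM (-0.049, SE 0.041), but was called lower after GC correction (-0.45, limma adjusted p = 0.0032), also without each library.

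All 4 genes of the chromosomal passenger complex fell as measured. The complex joins the kinase Aurora B to INCENP, survivin (BIRC5) and borealin (CDCA8), which place it at centromeres and then at the central spindle, where it corrects attachments and guides cytokinesis. CDCA8 measured 15.2 and 16.0 FPKM in shSCR and 6.51 and 7.75 FPKM in shJARID2 (-1.04, SE 0.094, limma adjusted p = 0.0020, GC-corrected -0.93). INCENP measured 50.2 and 51.6 FPKM in shSCR and 23.0 and 27.9 FPKM in shJARID2 (-0.98, SE 0.10, limma adjusted p = 0.0025, GC-corrected -0.38). The ratios of group means were 0.457 for CDCA8 and 0.500 for INCENP, and the change of CDCA8 was nearly as large under the correction while that of INCENP was not. BIRC5 went from 18.6 and 19.3 to 12.1 and 13.0 FPKM (-0.56, GC-corrected -0.39). AURKB went from 40.0 and 43.4 to 34.4 and 31.3 FPKM (-0.34, limma adjusted p = 0.017), did not pass after GC correction (0.045, limma adjusted p = 0.68), and lost its measured call without shSCR replicate 2. The corrected calls were lost for INCENP without either shSCR replicate and for BIRC5 without shSCR replicate 2. The median GC content of the 4 transcripts was 54.2%.

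Of 5 spindle checkpoint genes 3 rose and none fell as measured, and 2 were higher and 2 lower after GC correction. MAD2L1, whose protein binds CDC20 and holds it inactive, measured 8.46 and 7.45 FPKM in shSCR and 16.9 and 14.1 FPKM in shJARID2 (0.88, SE 0.11, limma adjusted p = 0.0039, GC-corrected 0.51). BUB3, which recruits BUB1 and BUBR1 to kinetochores, measured 43.3 and 42.5 FPKM in shSCR and 65.9 and 62.7 FPKM in shJARID2 (0.57, SE 0.046, limma adjusted p = 0.0017, GC-corrected 0.45). Groups did not overlap for either gene, and the BUB3 call held in both fits without each library, whereas the corrected call of MAD2L1 was lost without either shSCR replicate.

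BUB1, a kinase of the checkpoint, was level as measured, at 78.1 and 80.0 FPKM in shSCR and 80.7 and 77.5 FPKM in shJARID2 (0.00058, SE 0.044). It was lower after GC correction (-0.26, limma adjusted p = 0.011), except without shSCR replicate 2. BUB1B, which encodes BUBR1, measured 29.4 and 27.3 FPKM in shSCR and 31.3 and 32.3 FPKM in shJARID2 and did not pass in either fit (0.16 with a limma adjusted p of 0.060, and -0.070). It was called higher with limma-voom on recovered reads, with median-ratio scaling and among genes of at least 5 FPKM. TTK, the kinase MPS1 at the head of the checkpoint, went from 24.5 and 22.8 to 28.4 and 27.3 FPKM (0.22, limma adjusted p = 0.026) and was lower after GC correction (-0.18, limma adjusted p = 0.027). Each of these 2 calls of TTK was lost without any one of the 4 libraries.

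As measured, APC/C and separation genes went the other way for the most part, with 3 of 4 lower and 1 higher. In the GC-corrected fit the steps differed less, with calls of 2 lower and 1 higher here, and 2 each way among checkpoint genes. Median GC content was 54.4% for the APC/C and separation transcripts and 42.5% for those of the checkpoint. The contrast between the 2 steps was not tested. CDC20, the APC/C activator that the checkpoint holds, measured 96.6 and 102 FPKM in shSCR and 41.1 and 44.2 FPKM in shJARID2. The log2 fold change was -1.20 (SE 0.057, limma adjusted p = 0.0014, GC-corrected -0.75). On the measured log2(FPKM + 1) scale this was the lowest of the 42 genes, but CDCA8 was lower after GC correction (-0.93), and PLK1 was lower in the ratio of group means (0.426 against 0.430) and with limma-voom (-1.21 against -1.20). UBE2C, the E2 enzyme that works with APC/C, measured 37.0 and 37.1 FPKM in shSCR and 18.8 and 21.0 FPKM in shJARID2 (-0.87, SE 0.065, limma adjusted p = 0.0015, GC-corrected -0.74). Both calls held in both fits without each library. UBE2C has 4 annotated pseudogene copies and CDC20 has 1. In GENCODE 29 (GRCh38) CDC20 spans chr1:43358955-43363203 (+ strand).

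The ratio of MAD2L1 to CDC20 FPKM was 0.0877 and 0.0731 in shSCR and 0.410 and 0.320 in shJARID2. That of UBE2C to CDC20 was 0.383 and 0.364 against 0.457 and 0.474. GC-corrected values are differences on log2(FPKM + 1), and so not the log2 of these ratios. For MAD2L1 minus CDC20 they were -3.00 and -3.15 in shSCR and -1.70 and -1.93 in shJARID2. They were higher in both knockdown libraries, but by less than on the same scale without correction. For UBE2C minus CDC20 they were -1.23 and -1.26 against -1.27 and -1.17, with overlapping groups. Neither contrast between the groups was tested. PTTG1, which encodes securin, the inhibitor of separase, rose from 134 and 136 to 170.1 and 174 FPKM (0.35, GC-corrected 0.17). ESPL1, separase itself, fell from 17.9 and 18.5 to 11.0 and 12.3 FPKM (-0.61, limma adjusted p = 0.0032) and did not pass after GC correction (-0.16, limma adjusted p = 0.055). The ratio of PTTG1 to ESPL1 was 7.50 and 7.34 in shSCR and 15.5 and 14.2 in shJARID2. The GC-corrected difference on log2(FPKM + 1) was 3.12 and 3.15 against 3.49 and 3.45. This was a smaller change than on that scale without correction, and it was not tested. The corrected call of PTTG1 was lost without any one of the 4 libraries.

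Of 7 kinetochore genes 3 rose and 3 fell as measured, and 2 were higher and 4 lower after GC correction. The Ndc80 complex, which holds microtubule ends, pairs NDC80 with NUF2 on the outer side and SPC24 with SPC25 on the inner side. NDC80 measured 40.1 and 38.5 FPKM in shSCR and 60.7 and 57.0 FPKM in shJARID2 (0.57, SE 0.052, limma adjusted p = 0.0020, GC-corrected 0.22). NUF2 measured 25.0 and 23.6 FPKM in shSCR and 38.8 and 36.1 FPKM in shJARID2 (0.61, SE 0.060, limma adjusted p = 0.0023, GC-corrected 0.23). Both genes of the outer pair rose, with a NDC80 to NUF2 ratio between 1.56 and 1.63 in all 4 libraries. SPC24 fell from 20.9 and 20.3 to 13.6 and 14.7 FPKM (-0.51, limma adjusted p = 0.0031), and SPC25 stayed between 33.1 and 34.7 FPKM (-0.013, SE 0.047).

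The NDC80 to SPC24 ratio was 1.92 and 1.90 in shSCR and 4.46 and 3.88 in shJARID2, untested as a difference between genes. These transcripts differ in GC content, at 40.1% for NDC80, 39.2% for NUF2, 40.5% for SPC25 and 58.6% for SPC24. After GC correction the order changed, with SPC24 at 0.018 (limma adjusted p = 0.79) and SPC25 called lower at -0.35 (limma adjusted p = 0.0078). The GC-corrected difference between NDC80 and SPC24 on log2(FPKM + 1) was 1.31 and 1.38 in shSCR and 1.58 and 1.51 in shJARID2. The corrected calls of NDC80 and SPC25 were lost without either shSCR replicate, and that of NUF2 was kept only without shJARID2 replicate 2.

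CENPF, a large protein of the outer kinetochore, fell from 78.7 and 78.4 to 61.5 and 61.7 FPKM (-0.35, SE 0.037, limma adjusted p = 0.0027, GC-corrected -0.70). Its transcript has a GC content of 40.0%, the lowest among the genes that fell. CENPA, the histone H3 variant that marks centromeres, fell from 15.1 and 16.7 to 10.6 and 11.5 FPKM (-0.49, GC-corrected -0.51, with the corrected call lost without shSCR replicate 2). CENPE, a kinesin that moves chromosomes to the spindle equator, went from 25.2 and 25.0 to 27.8 and 28.9 FPKM (0.17, limma adjusted p = 0.030) and was lower after GC correction (-0.33, limma adjusted p = 0.014). Its measured call was lost without any one of the 4 libraries and its corrected call without either shSCR replicate.

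Genes of chromosome structure and cytokinesis had small changes. TOP2A, which untangles sister DNA, went from 156 and 150.0 to 186 and 184 FPKM (0.28, limma adjusted p = 0.0064). It did not pass after GC correction (-0.12, limma adjusted p = 0.051) or without shSCR replicate 2. MKI67, the proliferation marker Ki-67 that coats mitotic chromosomes, measured 79.3 and 79.5 FPKM in shSCR and 74.2 and 76.0 FPKM in shJARID2 (-0.078, SE 0.039, limma adjusted p = 0.15, GC-corrected -0.12 with a call lost without any one library). In cytokinesis, the RHOA activator ECT2 went from 92.4 and 88.4 to 104 and 108 FPKM (0.23, limma adjusted p = 0.014), lost that call without shSCR replicate 2, and was lower after GC correction (-0.18, limma adjusted p = 0.038), a call kept only without shJARID2 replicate 2.

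ANLN, a scaffold of the contractile ring, did not pass as measured (103 and 106 against 115 and 111 FPKM, 0.11, limma adjusted p = 0.081). With limma-voom on recovered reads it was called higher (0.14, limma-voom adjusted p = 0.011). It was lower after GC correction (-0.21, limma adjusted p = 0.022), a call lost without any one of the 4 libraries. PRC1 was listed at 0.145 to 0.269 FPKM, and 58.4% of its exon bases are shared with other genes, so its level is uncertain and no change was computed.

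**Figure D4:**
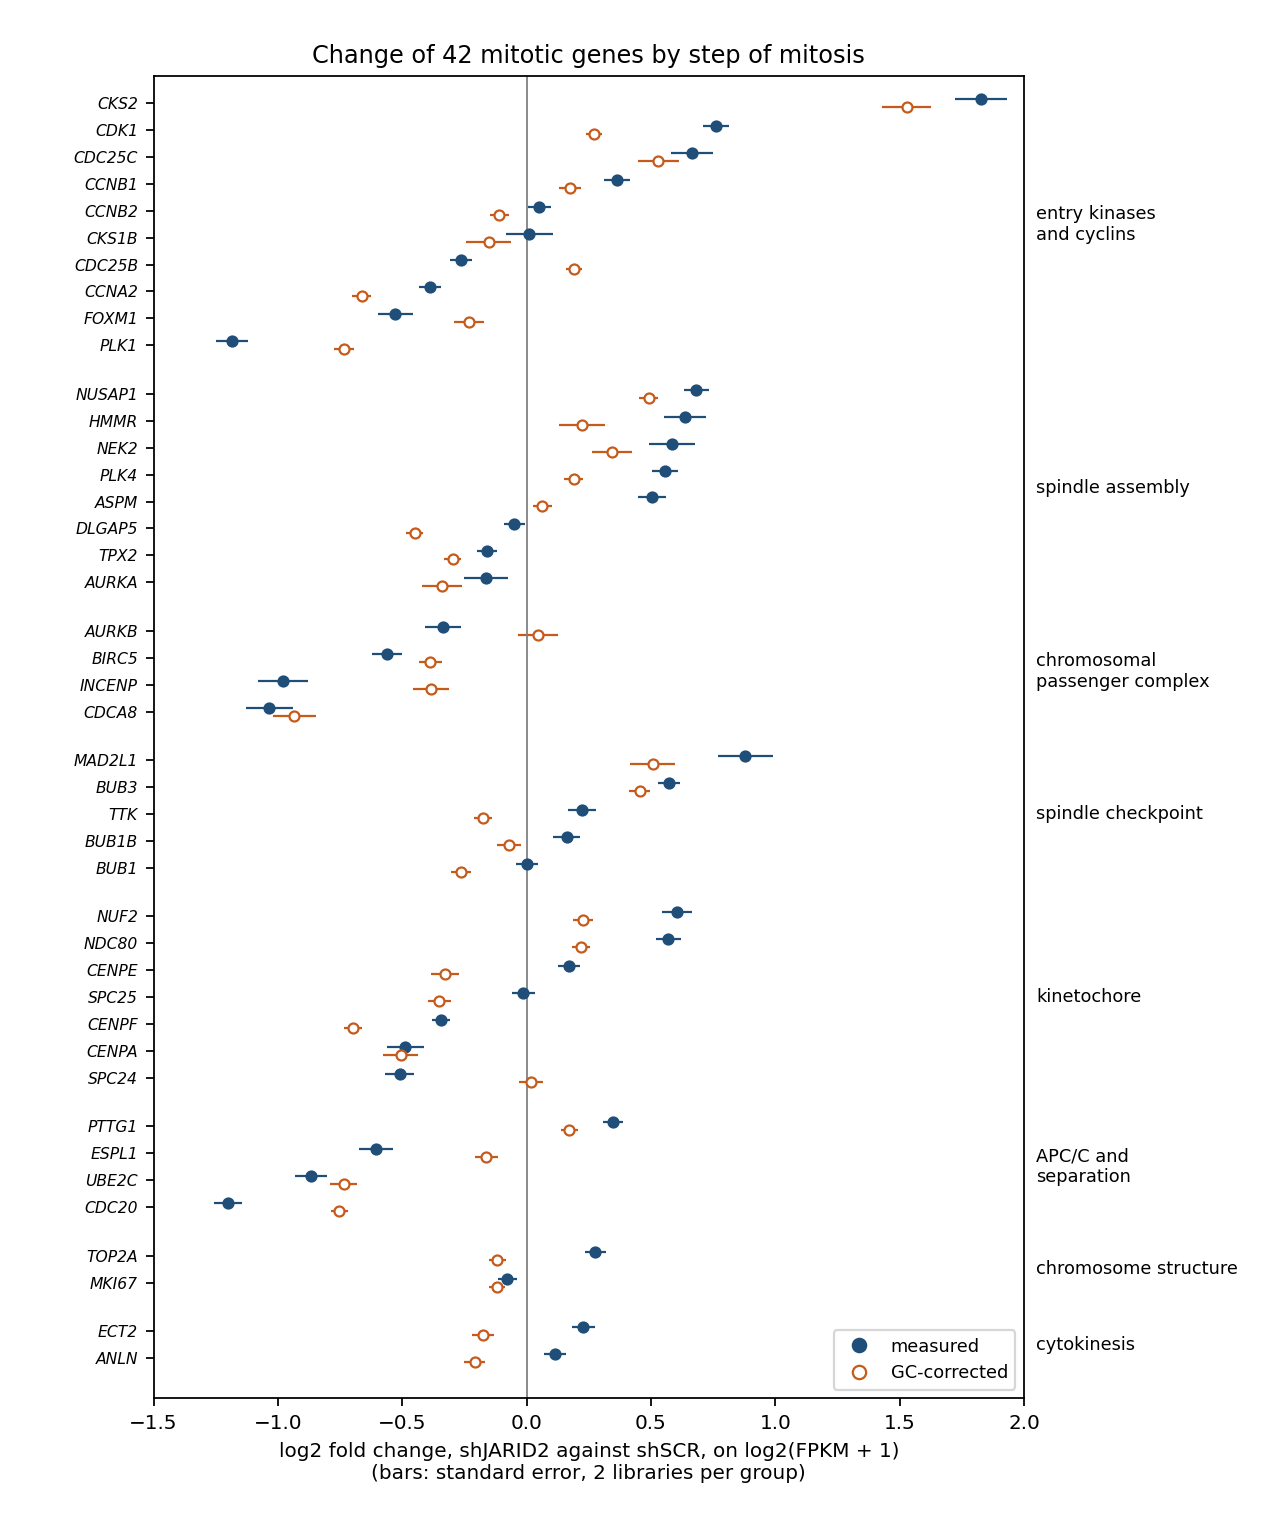
Log2 fold change of shJARID2 against shSCR (horizontal axis) with standard errors for the 42 tested genes (vertical axis), grouped by step of mitosis, as measured (filled) and GC-corrected (open). Measured values run from -1.20 for CDC20 to 1.83 for CKS2, all 4 chromosomal passenger genes lie below 0 as measured, and AURKB crosses 0 after correction.

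A list of 111 other mitotic genes, all found and 108 tested, also went both ways. As measured 51 were higher and 28 lower, where the background was 28.0% and 31.6% of all tested genes. After GC correction 26 were higher and 22 lower, where the background was 21.7% and 20.2%. The median log2 fold change of the list was 0.14 as measured and 0.033 after correction, and 22 genes were higher and 14 lower in both fits. Among 17 APC/C subunits, partners and inhibitors, 6 rose and 5 fell as measured, and 3 were higher and 4 lower after correction. UBE2S, the E2 that extends ubiquitin chains on APC/C substrates, went from 86.2 ± 2.63 to 32.5 ± 1.84 FPKM (SD, n = 2 per group, -1.38, GC-corrected -0.74). The subunit gene CDC26 fell as well (-1.12, GC-corrected -1.30). It shares 17.7% of its exon bases, and its corrected call was lost without shSCR replicate 2. UBE2S thus fell with UBE2C and CDC20, its partners at APC/C, but not all genes of this class did. The subunit genes ANAPC13 (0.95, GC-corrected 0.70) and CDC27 (0.74, GC-corrected 0.43) were called higher in both fits. ANAPC13 shares 13.0% of its exon bases with another gene, and CDC27 has 3 annotated pseudogene copies. Of 9 checkpoint partners 6 rose and 2 fell as measured, and 3 were higher and 0 lower after correction. ZWILCH, of the complex that brings MAD1 to kinetochores, rose (0.81, GC-corrected 0.47), and MAD1L1, the MAD2 anchor, fell (-0.84), except without shSCR replicate 2, and did not pass after GC correction (-0.13).

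Among 24 other kinetochore genes 13 rose and 3 fell as measured, and 7 were higher and 3 lower after correction, with a median log2 fold change of 0.35 as measured and 0.062 corrected. The inner kinetochore genes CENPW and CENPM led in opposite directions (1.34, GC-corrected 1.15, and -1.14, GC-corrected -0.52). CENPW was of low level, at 2.76 and 2.10 FPKM in shSCR and 7.19 and 8.06 FPKM in shJARID2. Of 14 entry regulators 6 rose and 5 fell as measured, and 2 were higher and 1 lower after correction. PKMYT1, a kinase that inhibits CDK1, went from 16.7 ± 1.22 to 5.52 ± 0.884 FPKM (SD, n = 2 per group, -1.44, GC-corrected -0.52). It shares 31.6% of its exon bases, and its corrected call was lost without either shSCR replicate. The fall of the transcription factor gene MYBL2 (-0.76) did not pass after correction (-0.15). Condensin and cohesin genes gave 7 rises and 7 falls among 17, which became 2 and 8 after correction. NCAPH2 (-0.79) and PDS5B (0.48) had the largest measured changes there, and neither passed after correction (-0.086 and 0.023). In both fits 1 gene of this class was higher and 5 were lower. The level of NCAPH2 was low, at 0.519 to 2.41 FPKM. The measured call of NCAPH2 was kept only without shSCR replicate 1. Of 16 centrosome and spindle genes 8 rose and 5 fell as measured, and 4 were higher and 5 lower after correction. The largest measured changes were those of CKAP2 (0.77, GC-corrected 0.36) and HAUS1 (0.63, GC-corrected 0.37). Of 11 cytokinesis partners 5 rose and 1 fell, and the same numbers were called after correction, with 3 genes higher and none lower in both fits. VPS4B, of the abscission machinery, rose (0.61, GC-corrected 0.45 with a call lost without shSCR replicate 2). The rise of CEP55, which recruits that machinery, was 0.47 and did not pass after correction (0.16), except without shJARID2 replicate 2. LIN37, CENPX and MIS18A stayed below the filter.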

How the data were processed

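RNA-seq of 4 libraries, 2 per group, was deposited as FPKM per gene by the authors, 1 file per library with 85553 rows, of which 60420 carry no symbol. Trimmomatic, HISAT2, SAMtools and featureCounts are named in the submitters' processing notes. Not given in the sources used here are their versions, the genome build, the annotation, strandedness and the treatment of reads with several matches. Between 92.2% and 93.6% of low FPKM values (up to 20 reads) were within 0.05 of a whole read at the depth and GENCODE 29 exon length used. FPKM is not a count, so limma-trend (limma 3.58.1 in R 4.3.3) was fitted to log2(FPKM + 1) with group as the only term. Named rows whose mean reached 1 FPKM were tested, with Benjamini-Hochberg adjustment over all 12455. For the GC correction, a loess curve (span 0.3, degree 2) on transcript GC content was subtracted from each library's deviation from the gene's mean. The alternatives were another pseudocount, filter or scaling, length added to the correction, limma-voom on recovered reads, a replicate block and each library left out. The procedure was also run on simulated reads, with and without a linear GC trend. Few genes changed in that simulation, at random with respect to GC content, whereas most tested genes were called here. It therefore cannot show how well the GC-corrected calls hold.

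All 43 genes are accounted for. Values in each library are given for those with the largest change per step or whose call turned with the correction. Of the other mitotic genes, up to 2 called genes per class are given by size of change, with ANAPC13 and CDC27 added. Members and lists were chosen with earlier results of these data known. Promoters came from a RefSeq table, matched by gene ID.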

Additional observations from a re-analysis of the deposited data

How the results depend on the processing

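With 2 libraries per group, the residual degrees of freedom were 2, and p-values rest partly on the spread shared over genes. Another pseudocount (0.1) and upper-quartile scaling left the call of each of the 42 genes as it was. Without a filter on low values TPX2 and TTK lost their calls. Correction for GC content moved the most results. With GC and length correction 11 mitotic genes were higher, against 18 as measured. Of the other mitotic genes 26 were higher with GC correction, 24 with GC and length correction and 21 with GC correction and a replicate block, against 51. Of all 12438 genes with a GC value 2515, 2570 and 2140 were lower under these settings, against 3941 of 12455 as measured. At a mean of at least 5 FPKM only 7331 genes were tested, and 2588 of them were lower. The median log2 fold change of the 42 genes was -0.14, -0.16 and -0.14 under the corrections, 0.055 with limma-voom and 0.054 with median-ratio scaling, against 0.031. At a mean of at least 5 FPKM the median was 0.083, over the 40 mitotic genes at that level. The cause of the GC trend was not tested.

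Among genes called in at least 1 of the fits, values that changed sign with GC correction, with or without the block, and then with length added, were 0.19 and 0.20 for CDC25B, 0.045 and 0.044 for AURKB, -0.26 and -0.29 for BUB1, -0.18 and -0.21 for TTK, 0.018 and 0.024 for SPC24, -0.33 and -0.36 for CENPE, -0.12 and -0.16 for TOP2A, -0.21 and -0.24 for ANLN and -0.18 and -0.22 for ECT2. CCNB2 (-0.11 and -0.16, called with length added only), CKS1B (-0.15 and -0.22) and BUB1B (-0.070 and -0.11), which did not pass as measured or with GC correction, changed sign as well. With length added the calls of CCNB1 (0.10, limma adjusted p = 0.085) and PTTG1 (0.093, limma adjusted p = 0.13) were lost.

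With each library left out in turn, the mitotic genes higher numbered 14 to 16 and those lower 12 to 14. The lone library of a group was then assumed to vary like the other group. The other mitotic genes numbered 34 to 44 higher and 14 to 25 lower, and all genes 2168 to 3068 higher and 2462 to 3763 lower. The median ran from 0.020 to 0.057. In GC-corrected fits with a library left out, an alternative chosen after seeing the data, the mitotic genes numbered 3 to 12 higher and 8 to 15 lower, and the other mitotic genes 10 to 17 and 12 to 20. Without shSCR replicates 1 and 2 and shJARID2 replicates 1 and 2 in turn, mitotic genes higher were 4, 3, 6 and 12, all genes higher 1337, 1135, 1763 and 2101, all genes lower 1024, 857, 1711 and 2021, and the median -0.13, -0.15, -0.11 and -0.15. Among the 38 genes with under 10% of exon bases shared, also chosen after seeing the data, 17 were higher and 13 lower.

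The replicate block left the mitotic genes at 18 higher and 15 lower, with the call of each of the 42 genes as without it in the measured fit. With GC correction the block gave 12 higher and 16 lower, against 13 and 20, and the calls of CCNB1 (limma adjusted p = 0.065), FOXM1 (0.072), AURKA (0.071), MKI67 (0.082) and ECT2 (0.061) were lost. Deviations of libraries with equal numbers had a correlation of 0.029 across genes, a value that cannot show whether they share more than a number.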
